A study of Mus musculus with 6 samples.

Results

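miR-219 and miR-338 are the microRNAs (miRNAs, small RNAs that pair with messenger RNAs and repress them) most closely tied to oligodendrocytes, the myelin-forming cells of the brain. All names of miR-219a, miR-219b and miR-338 were taken from the table of mature miRNAs, which gave 5 of 756: mmu-miR-338-3p, mmu-miR-338-5p, mmu-miR-219a-5p, mmu-miR-219a-2-3p and mmu-miR-219a-1-3p (mmu for mouse, left out below). No strand of miR-219b was listed. The libraries came from the dorsal striatum of 7-week-old C57BL/6N mice, a part of the basal ganglia involved in habits. Mice of the nicotine withdrawal group (n = 3) were injected with 0.5 mg/kg nicotine daily over 3 days, and mecamylamine, a blocker of nicotinic acetylcholine receptors, was injected at 3.0 mg/kg 24 hours later to precipitate withdrawal. The saline control group (n = 3) received saline, and tissue of the treated mice was collected 1 week after the last injection. The comparison therefore covers nicotine and mecamylamine together. Values are read counts scaled by the authors with 1 size factor for each library, called normalized reads below. Each library was taken as 1 mouse; if some share a mouse, the p-values reflect technical spread alone.

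Oligodendrocyte progenitors divide under growth factor signals and stop dividing before they make myelin. In rodents miR-219 and miR-338 increase as progenitors mature, and they repress genes that hold cells in the progenitor state, among them those of the receptor Pdgfra (miR-219) and the transcription factors Sox6 and Hes5. In the striatum, myelin lies mainly in the fibre bundles of the internal capsule that cross it. Each miRNA hairpin gives a 5p and a 3p strand, of which the one loaded more often is called the guide, and bases 2 to 8 of the strand, the seed, select the targets.

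The mature sequences are shown because the 5 names come from 3 loci and are told apart by them, with the seed in capitals. They are from RefSeq on GRCm38.p6, which held a sequence for 4 of the 5. miR-219a-2-3p is named only. Positions are those of that build, and none is taken from the deposited table.
miR-338-3p: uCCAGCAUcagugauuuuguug
miR-338-5p: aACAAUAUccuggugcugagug
miR-219a-5p: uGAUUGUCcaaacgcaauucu
miR-219a-1-3p: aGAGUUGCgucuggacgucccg
The 4 seeds differ from each other, and none was shared with another miRNA among the 654 names of the table that had a sequence. So miR-338-3p and miR-219a-5p do not have the same seed matches, although both act in the same cell type.

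The hairpins are shown because 2 of them give the same 5p strand. Capitals mark the mature strands that RefSeq lists in each.
Mir338: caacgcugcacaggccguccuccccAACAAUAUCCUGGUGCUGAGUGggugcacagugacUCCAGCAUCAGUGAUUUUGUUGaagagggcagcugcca
Mir219a-1: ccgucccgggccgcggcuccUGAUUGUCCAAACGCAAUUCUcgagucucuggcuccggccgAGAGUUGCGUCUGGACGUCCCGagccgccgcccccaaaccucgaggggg
Mir219a-2: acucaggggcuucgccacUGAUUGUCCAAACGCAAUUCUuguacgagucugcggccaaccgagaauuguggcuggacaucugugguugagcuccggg
Mir338 lies at chr11:120014765-120014862 on the minus strand, in an intron of Aatk, a kinase gene of neural cells, on the same strand as the gene. All 6 GENCODE transcripts of Aatk that span it have it between exons. Mir219a-1 lies at chr17:34024983-34025092 (minus strand), 303 bases from Ring1 and 941 from H2-Ke6, and overlaps an exon of the long noncoding RNA Gm26940 on the same strand in GENCODE. Mir219a-2 lies at chr2:29845631-29845727 (minus strand), 629 bases from Urm1 in GENCODE, while the RefSeq model of Cercam extends across it. The miR-219a-5p strand is identical in both Mir219a hairpins, so its reads cannot be assigned to a locus, whereas the 3p names are specific to 1 locus each.

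The order of levels was the same in all 6 libraries. miR-338-3p stood at rank 58 to 64 of the 756 names, miR-219a-2-3p at 124 to 130, miR-338-5p at 157 to 170, miR-219a-5p at 230 to 238 and miR-219a-1-3p at 474 to 500. These ranks are on normalized reads not divided by length, and the strands with a sequence are 21 or 22 bases long. The ranges of neighbours in this order over the 6 libraries did not overlap. The 5 strands together took 0.259 ± 0.00595% of normalized reads in the saline controls and 0.245 ± 0.00399% in withdrawal (SD, n = 3 each). Of this sum miR-338-3p made up 74.7 ± 0.290% and 72.1 ± 0.281%.

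Across the table, 46 of 699 tested miRNAs passed (6.58%, with 3.58% passing as lower; limma with a variance trend, log2(value + 1), Benjamini-Hochberg adjusted p under 0.05). The groups did not overlap in 27.6% of the 699. All 5 oligodendrocyte strands were tested. miR-338-3p passed and was lower in withdrawal, and the other 4 did not pass.

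miR-338-3p, the strand of Mir338 known to act on Sox6 and Hes5, stood at 89867, 84228 and 88858 normalized reads in saline controls 1 to 3. In withdrawal libraries 1 to 3 it stood at 79889, 77600.4 and 77293. Every withdrawal library was below every control, and the lowest control, control 2, lay closer to the withdrawal libraries than the other controls did. Here and below, ± gives the limma standard error for log2 changes and differences, and the SD for group means. miR-338-3p fell by 0.16 ± 0.03 on the log2 scale, from 87651 ± 3007 to 78261 ± 1419 (limma, adjusted p = 0.00723), a change of -10.7%. Its p was the 12th smallest of the 699. In bulk tissue, fewer cells that carry miR-338-3p and less of it per cell cannot be told apart. Which cells it came from was not tested. Of the other strands, miR-338-5p stood at 0.11, miR-219a-5p at 0.08, miR-219a-2-3p at -0.03 and miR-219a-1-3p at -0.13, and none passed. The call of miR-338-3p held in 14 of 15 alternative settings. It ended when limma was run without the variance trend (adjusted p = 0.185), where no miRNA passed.

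miR-338-5p, the less abundant strand of the same hairpin, stood at 8855, 8406 and 8496 normalized reads in the controls and at 10057, 9287 and 8587 in withdrawal libraries 1 to 3. Withdrawal libraries 1 and 2 were above all controls, while withdrawal library 3 was below control 1, so the groups overlapped. The means were 8586 ± 238 and 9310.0 ± 735, a log2 fold change of 0.11 ± 0.05 (limma, adjusted p = 0.178). Its value rests on single libraries: it was 0.17 without withdrawal library 3, where it passed (adjusted p = 0.0137), and 0.06 without withdrawal library 1 (adjusted p = 0.486). The spread was wider in withdrawal, at 7.90% of the mean, than in the controls, at 2.77%.

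**Figure D1:**
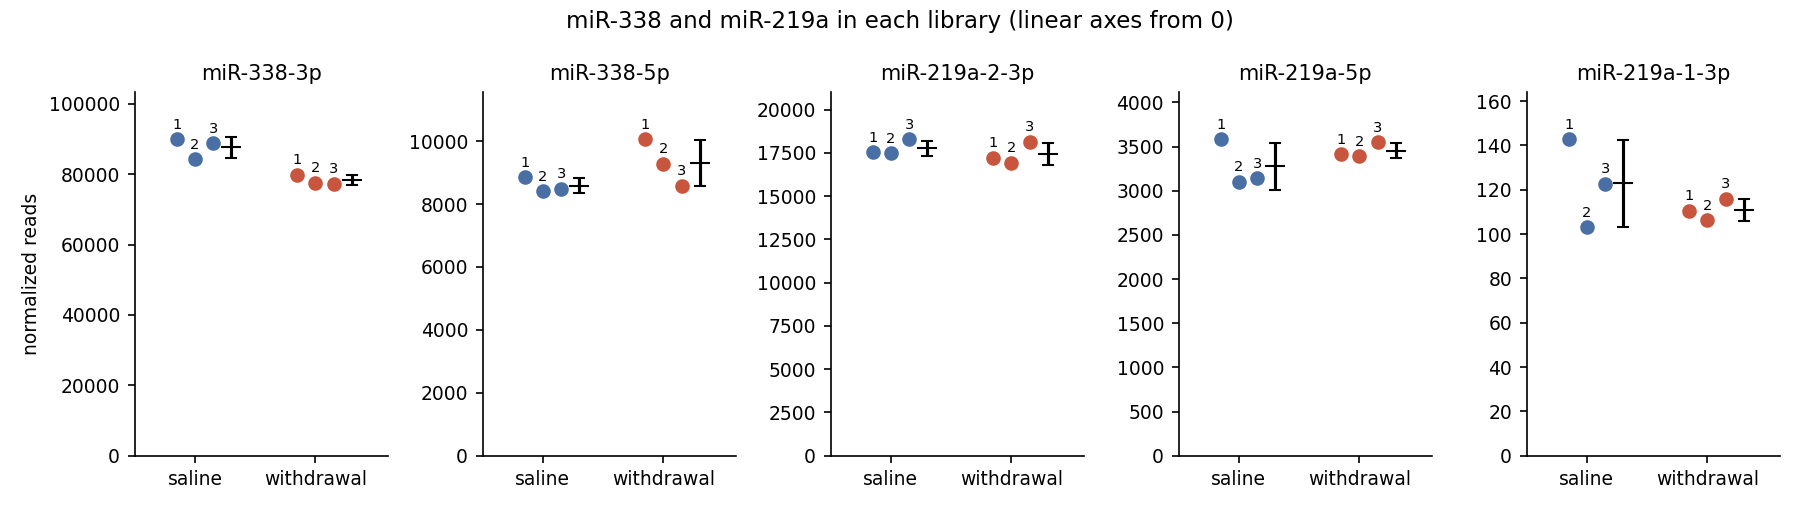
Normalized reads of the 5 strands in each library (numbers are replicate numbers, linear axes from 0), with the mean and SD of 3 libraries beside the points. The withdrawal libraries lie between 77293 and 79889 for miR-338-3p, below all controls, and the groups overlap for the other 4 strands.

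miR-219a-5p, the strand known to repress Pdgfra, stood at 3581, 3104 and 3140.2 normalized reads in the controls and at 3416, 3392 and 3549 in withdrawal. Control 1 was above every withdrawal library, and the other controls were below all of them. The means were 3275 ± 266 and 3453 ± 84.5, a log2 fold change of 0.08 ± 0.05 (limma, adjusted p = 0.397). Without control 1 the value was 0.14 (adjusted p = 0.0587), without control 2 it was 0.04 (adjusted p = 0.745) and without control 3 it was 0.05 (adjusted p = 0.680).

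miR-219a-2-3p, the strand of the Mir219a-2 hairpin opposite miR-219a-5p, stood at 17530.3, 17461 and 18273 normalized reads in the controls and at 17209, 16928 and 18148 in withdrawal. The groups overlapped, with replicate 3 the highest in each. The log2 fold change was -0.03 ± 0.03 (limma, adjusted p = 0.693), from 17755 ± 450.2 to 17428 ± 639, and it was 0.0057 after scaling to equal totals. It lay at -0.057 without withdrawal library 3, -0.0062 without control 3 and -0.0064 without withdrawal library 2. Its libraries spread by 2.54% of the mean in controls and 3.66% in withdrawal.

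miR-219a-1-3p, the opposite strand of the Mir219a-1 hairpin, was the rarest at 143, 103 and 123 normalized reads in the controls and 110.5, 106 and 116 in withdrawal. Control 1 was the highest library and control 2 the lowest. The log2 fold change was -0.13 ± 0.13 (limma, adjusted p = 0.608), and it ranged from -0.25 without control 2 to -0.02 without control 1. This strand rests on an estimated 111 to 139 reads per library, if a step is 1 read, where the counting error reaches 9.49%, and its libraries spread by 16.1% of the mean in the controls and 4.37% in withdrawal. The other 4 rest on an estimated 3146 or more reads in each library, with a counting error of at most 1.78%.

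**Figure D2:**
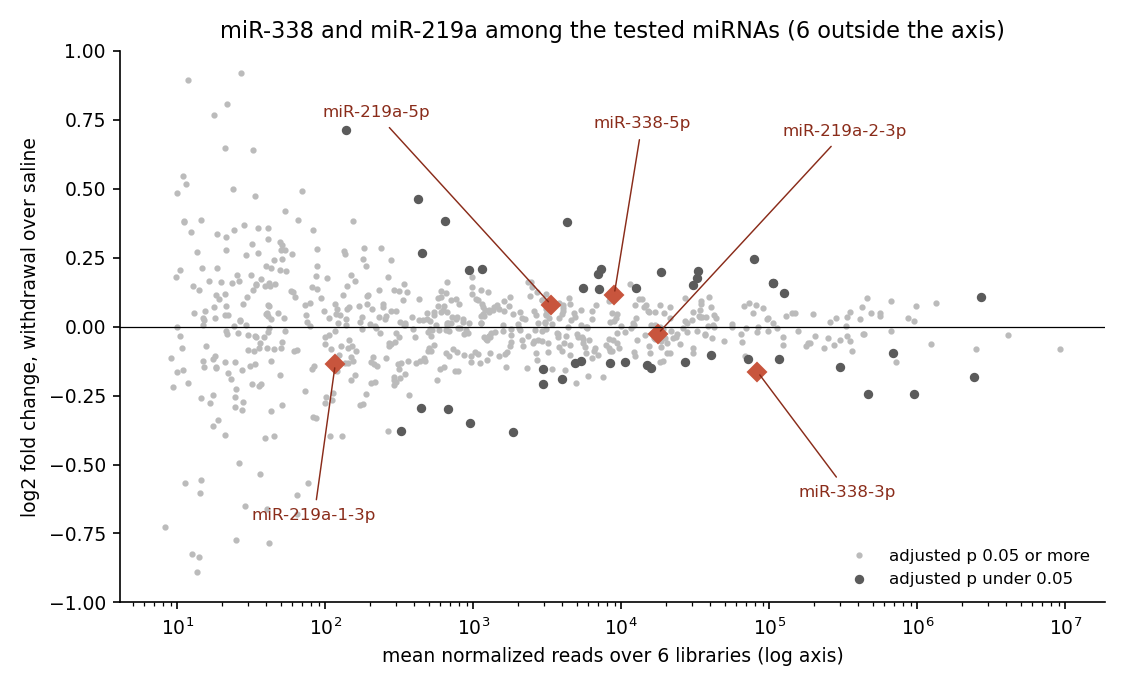
Log2 fold change of withdrawal over saline against the mean normalized reads (log axis) of the 699 tested miRNAs, with 6 outside the axis. miR-338-3p, at -0.16, is the 1 diamond in the band of miRNAs that passed (dark points), and the other 4 lie among the grey points.

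Since a ratio within a library does not depend on its size factor, the strands were also compared with each other. For Mir338, the ratio of the 5p to the 3p strand was 0.0985, 0.0998 and 0.0956 in the controls and 0.126, 0.120 and 0.111 in withdrawal libraries 1 to 3. All withdrawal libraries were above all controls: miR-338-3p was 10.0 to 10.5 times as abundant as miR-338-5p with saline and 7.94 to 9.002 times as abundant in withdrawal. The log2 ratio was higher by 0.28 ± 0.06 in withdrawal, from -3.35 ± 0.03 to -3.07 ± 0.09 (limma over 245 hairpins, adjusted p = 0.135). This did not pass, but its p was the 5th smallest of the 245. Over all hairpins none passed (0%; limma without a trend), 44 had an unadjusted p under 0.05 (18%), and the groups did not overlap in 27.8%. In 9 alternative settings the Mir338 difference lay between 0.24 and 0.33, with adjusted p from 0.0635 to 0.360.

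For the Mir219a hairpins the miR-219a-5p strand enters both ratios. It was 25.1, 30.1 and 25.6 times as abundant as miR-219a-1-3p in the controls and 30.9, 31.9 and 30.6 times in withdrawal, without overlap (log2 difference 0.21 ± 0.08, limma, adjusted p = 0.266). The ratio of miR-219a-5p to miR-219a-2-3p was 0.204, 0.178 and 0.172 in the controls and 0.199, 0.200 and 0.196 in withdrawal (log2 difference 0.11 ± 0.08, limma, adjusted p = 0.552). Here control 1 was above every withdrawal library, and the difference was 0.18 without control 1 and 0.06 without control 3. Among the hairpins the 3p strand was the more abundant for Mir338 and, against the 5p reads of both loci together, for Mir219a-2. For Mir219a-1 the favoured strand cannot be told, since its 5p reads cannot be separated. The 3p strand of Mir219a-2 was 123 to 169 times as abundant as that of Mir219a-1.

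Between the families, miR-338-3p was 25.1, 27.1 and 28.3 times as abundant as miR-219a-5p in the controls and 23.4, 22.9 and 21.8 times in withdrawal. It was 5.13, 4.82 and 4.86 times as abundant as miR-219a-2-3p in the controls and 4.64, 4.58 and 4.26 times in withdrawal. In both ratios every withdrawal library stood closer to parity than every control. The log2 ratio of miR-219a-5p to miR-338-3p was higher by 0.24 in withdrawal and that of miR-219a-2-3p to miR-338-3p by 0.14, each at exact permutation p = 0.1 (two-sided, adjusted p = 0.15 over 3 ratios), which is the smallest p that 3 against 3 libraries allow. Both share miR-338-3p, which was itself lower, and are not evidence separate from that fall or from each other. The log2 ratio of miR-219a-2-3p to miR-219a-5p differed by -0.11, with overlap (exact permutation p = 0.4), and by -0.18 without control 1 and -0.06 without control 3.

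**Figure D3:**
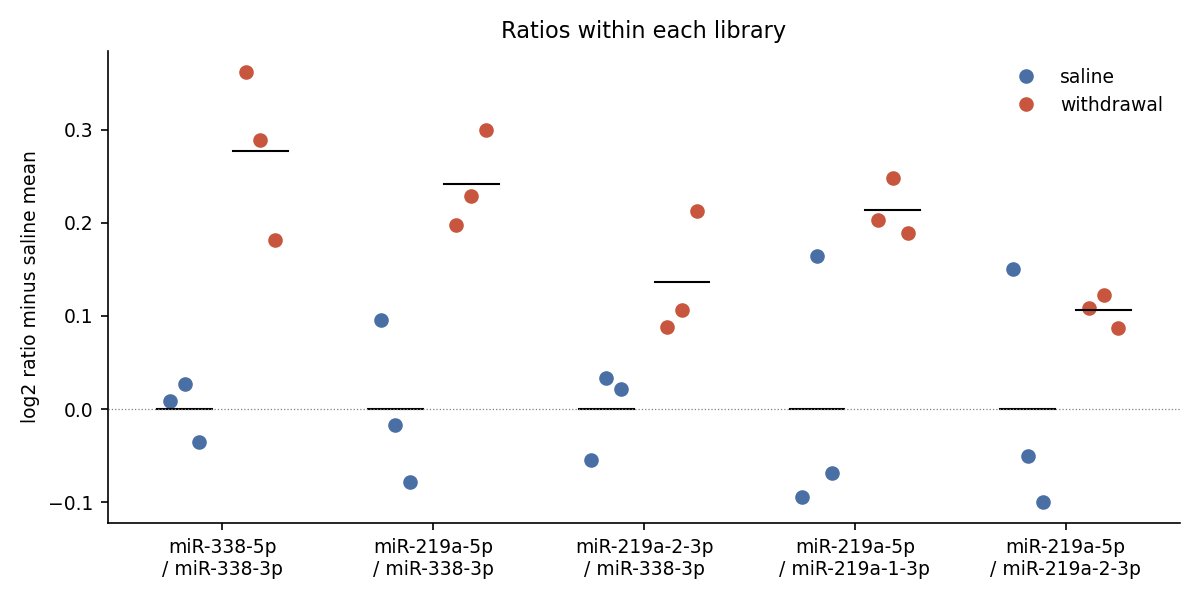
Log2 ratio of 2 strands within each library, minus the mean of the 3 saline libraries (bars are group means). The withdrawal libraries are above all controls in the first 4 ratios, by 0.28, 0.24, 0.14 and 0.21 on average, while control 1 lies above the withdrawal libraries in the last. None of these ratios passed, and the first 3 share miR-338-3p. Over the strand ratios of all 245 hairpins the groups did not overlap in 27.8%.

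Each of the 3 loci has an annotated miRNA hairpin on its other strand: Mir3065 opposite Mir338 over 87 bases, Mir219b opposite Mir219a-2 over 65 and Mir219c opposite Mir219a-1 over 60. The sequence of miR-219c-3p is shown because 20 of its bases are the reverse complement of miR-219a-5p, and its seed is again in capitals.
miR-219c-3p: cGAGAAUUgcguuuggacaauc
It was the 1 strand of these opposite hairpins listed in the table, at 26.0, 21.3 and 27.0 normalized reads in the controls and 24.9, 28.6 and 30.03 in withdrawal. The groups overlapped (log2 fold change 0.16 ± 0.25, limma, adjusted p = 0.758). No strand of Mir3065 or Mir219b was listed in the table.

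Other miRNAs known from the oligodendrocyte lineage were read from 3 lists. Of 7 that favour differentiation or, as miR-7a-5p, promote the lineage, 2 rose, 1 fell and 4 did not pass. Of all tested miRNAs, 6.58% passed in either direction. The median log2 fold change of the 7 was 0.04, against 0.00 over all tested miRNAs. miR-138-5p, which is induced with miR-219 and miR-338 in maturing mouse oligodendrocytes, fell from 500527 ± 21649 to 422669 ± 32751 normalized reads (-0.25 ± 0.05, limma, adjusted p = 0.00934). It is also abundant in neurons. miR-146a-5p, best known from inflammatory signalling, rose by 0.19 ± 0.04, and miR-7a-5p, a neuroendocrine miRNA that also promotes the lineage, by 0.21 ± 0.05. miR-335-5p, which like miR-338 is induced by Sox10, stood at -0.05 ± 0.04, and miR-23a-3p, which represses lamin B1, at 0.00 ± 0.03. Without control 2 the calls of miR-138-5p, miR-146a-5p and miR-7a-5p ended (adjusted p = 0.0687, 0.0807 and 0.114). That of miR-146a-5p also ended without control 3 (0.0515), and that of miR-7a-5p without control 1, control 3 or withdrawal library 2 (0.106, 0.0568 and 0.101). With quantile normalization the calls of miR-146a-5p and miR-7a-5p ended as well (adjusted p = 0.191 and 0.266).

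Of 6 miRNAs of the miR-17-92 cluster, which supports the division of progenitors, 1 fell and 5 did not pass, where 3.58% of all tested miRNAs fell (median log2 fold change 0.07). miR-92a-3p, the most abundant, fell from 75088 ± 645 to 69293 ± 824 (-0.12 ± 0.03, limma, adjusted p = 0.0156). Its call ended without control 2, control 3, withdrawal library 1 or withdrawal library 2 (adjusted p = 0.0764, 0.0541, 0.0515 and 0.106), and also with equal library totals (-0.083, adjusted p = 0.0537). The others lay above 0: miR-17-5p and miR-19b-3p stood at 0.07 ± 0.05 and 0.05 ± 0.04. miR-18a-5p, miR-19a-3p and miR-20a-5p stood at 0.07, 0.18 and 0.08. Of 5 miRNAs reported to restrain maturation or myelin genes none passed in limma, with 1 at an unadjusted p under 0.05 (median log2 fold change -0.01). That one was miR-9-5p, the most abundant, at 1295740 ± 29186 and 1374900 ± 54472 (0.09 ± 0.03, limma, adjusted p = 0.156).

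The miRNAs whose pattern over the 6 libraries was most like that of each strand were taken as those with the smallest root mean square difference between log2 values centred on their mean, among 316 others with a mean of at least 1000 normalized reads. For miR-338-3p these were miR-151-5p (0.0234), miR-22-3p (0.0250) and miR-130a-3p (0.0261), against a median of 0.0953 over the 316. All 3 were lower in every withdrawal library than in every control, which follows largely from their selection for likeness to miR-338-3p. For miR-219a-5p they were miR-190a-5p, miR-384-5p and miR-384-3p (0.0344, 0.0391 and 0.0400, median 0.0926), in each of which control 1 was the highest control. For miR-219a-2-3p they were let-7g-5p, miR-298-5p and miR-323-3p (0.0143, 0.0196 and 0.0205, median 0.0604). None of the 9 appeared under more than 1 strand. Features that they share with a strand come from this selection and are not separate evidence.

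Summed markers of other cell types differed between the groups as well. The summed oligodendrocyte markers (4 strands, without miR-219a-1-3p) stood at 96.5 to 102% of their saline mean in the controls and 91.4 to 94.3% in withdrawal. The sums of 5 neuronal markers (98.4 to 103% and 95.4 to 97.2%) and of 5 microglial and leukocyte markers (97.9 to 102% and 91.8 to 93.5%) were also lower in every withdrawal library. Those of 4 vessel markers (99.2 to 101% and 102 to 104%), 5 choroid plexus and epithelial markers (98.6 to 102.5% and 103.3 to 106%) and 3 erythrocyte markers (94.4 to 104.9% and 105.4 to 115%) were higher. None of these markers was at 0 in any library. Among vessel markers only miR-143-3p was higher (log2 fold change 0.08), with miR-126a-3p at -0.10, miR-126a-5p at -0.07 and miR-145a-5p at -0.06. Of the neuronal markers miR-128-3p (-0.13) and miR-132-3p (-0.02) were lower. The neuronal miR-124-3p (0.05), miR-137-3p (0.01) and miR-129-5p (0.07) were higher. Microglial and leukocyte markers also went both ways, with miR-150-5p at -0.13 and miR-142a-5p at -0.06. miR-142a-3p (0.01), miR-223-3p (0.15) and miR-155-5p (0.26) were higher. In the saline controls miR-150-5p averaged 27944 of the 38417 normalized reads of that sum. Each sum is set mainly by its most abundant members, and most single markers did not pass: 0 of 5 neuronal, 1 of 5 microglial and leukocyte (miR-150-5p, lower), 1 of 4 vessel (miR-126a-3p, lower), 1 of 5 choroid plexus and epithelial (miR-141-3p, higher) and 0 of 3 erythrocyte markers, against 6.58% of all tested miRNAs. Without control 2 each of these 3 calls ended (adjusted p = 0.140, 0.142 and 0.0539). Those of miR-150-5p and miR-126a-3p also ended without control 3 (0.0568 and 0.103), withdrawal library 1 (0.0603 and 0.0986) or withdrawal library 2 (0.0811 and 0.129), and with equal library totals (0.0919 and 0.134). With quantile normalization those of miR-150-5p and miR-141-3p ended (0.0945 and 0.0655). The erythrocyte list left out miR-486, which is also erythroid. Its names miR-486a-5p and miR-486b-5p passed as higher (0.16 ± 0.03 each, limma, adjusted p = 0.00673 each). They had nearly the same mean over the libraries (105487 and 105358 normalized reads) and are not taken as separate calls. Their 3p strands did not pass (-0.15 for miR-486a-3p and 0.03 for miR-486b-3p). The oligodendrocyte sum is mostly miR-338-3p itself, so the fall of this sum repeats that of the strand. The part of the other shifts in the lower miR-338-3p was not tested. The labels give the tissue as dorsal striatum, and no miRNA here marks that region alone.

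**Figure D4:**
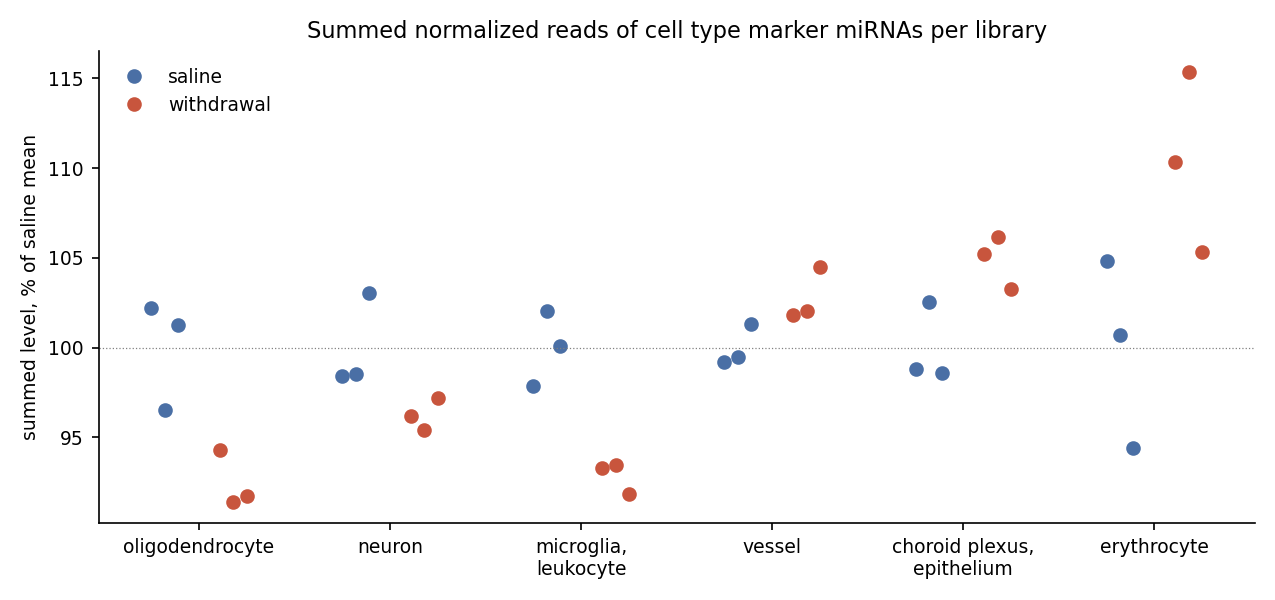
Summed normalized reads of the marker miRNAs of each cell type per library, in percent of the mean of the 3 saline libraries. The oligodendrocyte sum, which is mostly miR-338-3p, lies at 91.4 to 94.3% in withdrawal. The sums of the other cell types shift as well, the erythrocyte sum up to 115%.

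**Figure D5:**
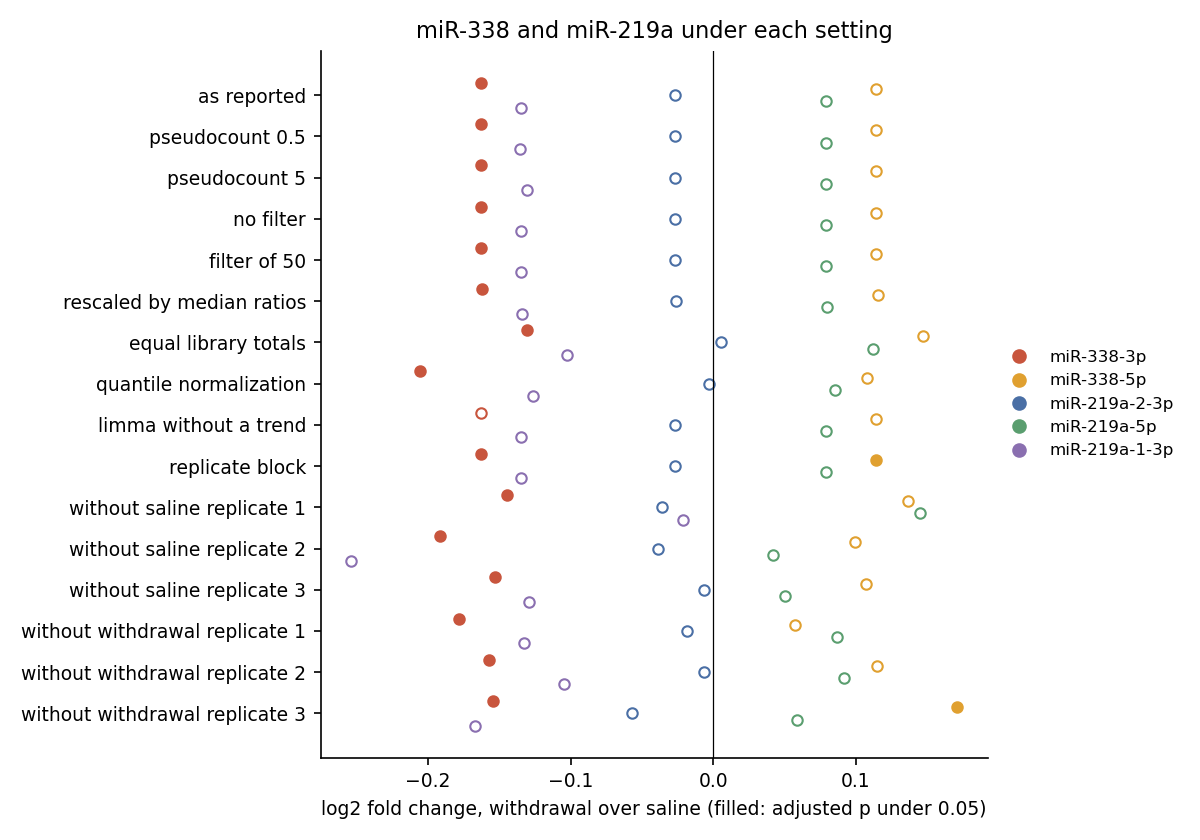
Log2 fold change of the 5 strands as reported and under each of 15 alternative settings (filled points have an adjusted p under 0.05). miR-338-3p lies between -0.21 and -0.13 throughout and is filled in all but limma without a trend, while miR-338-5p is filled in 2 settings.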

How the data were processed

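Total RNA was extracted with Trizol and small RNA libraries were prepared by TruSeq chemistry, per the labels' protocols. The authors deposited 1 table of normalized signal, that is, read counts scaled with 1 size factor for each library. DESeq2 and the build mm9 are named in the submitters' processing notes. Aligner, miRNA annotation and handling of multiply mapping reads were not given in the sources used here. Within a library, 100% of values were whole multiples of 1 step (to within 0.01), which gave estimated totals of 40111870 to 53262896 reads if a step is 1 read. The smallest positive value was 4 or 5 steps, so no count test was run. Intervals and errors from reads cover counting error only.

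miRNAs reaching 10 normalized reads in 3 or more libraries were kept (699 of 756). limma 3.58.1 in R 4.3.3 fitted log2(value + 1) with a variance trend. Tests were two-sided, and p-values were adjusted by Benjamini-Hochberg over all kept miRNAs (threshold 0.05). Changes of low miRNAs are understated on this scale. Hairpins with both strands kept (245) were tested on log2((5p + 1)/(3p + 1)) in limma without a trend, and a strand shared by several loci enters each. The code was tested on simulated data. Ratios between families were compared with an exact permutation test in scipy 1.17.1. Positions are from RefSeq and GENCODE vM21 on GRCm38.

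The strands and lists were chosen with earlier results of these data known. Named miRNAs were, by rule, the 5 strands, list members past the threshold or most abundant, opposite-strand and same-seed miRNAs and the 3 nearest patterns. miR-335-5p, miR-23a-3p, miR-17-5p, miR-18a-5p, miR-19a-3p, miR-19b-3p, miR-20a-5p and the miR-486 strands were added after their values were seen. So were the microglial and leukocyte markers other than miR-150-5p. The alternatives were pseudocounts of 0.5 and 5, no filter and a filter of 50, other scalings, limma without a trend, a replicate block and the omission of each library.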

Additional observations from a re-analysis of the deposited data

How the results depend on the processing

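The fall of miR-338-3p kept its direction in all 15 settings run (log2 fold change -0.21 to -0.13; -0.19 to -0.14 with 1 library left out) and ended as a call in limma without a trend (-0.16, adjusted p = 0.185). miR-338-5p passed with a replicate block (0.11, adjusted p = 0.0316) and ranged from 0.057 to 0.17 with 1 library left out. miR-219a-2-3p changed sign with equal library totals (0.0057, from -0.03). The count of 46 was 22 with quantile normalization, 0 without the variance trend (the lowest adjusted p was 0.141), 106 (49 higher, 57 lower) with a replicate block and 13 to 58 with 1 library left out, of which 13 was without control 2. With equal library totals 46 of 61 calls were higher, against 21 of 46. The number of hairpins whose strand ratio passed was 1 in limma with a trend (miR-16-1) and 0 to 1 with 1 library left out. The cause of these shifts was not tested.

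Libraries with the same number deviated from their group means with r from -0.07 to 0.09, those with different numbers with r from -0.16 to 0.10, and 3 of 6 had their highest r with the same number, so the numbers were not taken as pairs. The count tests planned for recovered reads (edgeR and DESeq2) were not run. miR-219a-1-3p rests on the fewest reads of the 5 strands.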
